A study of Homo sapiens with 4 samples.

Results

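The genes described are 9 members of the NRF2 antioxidant pathway, taken by name from the 36525 genes of an RPKM table: NFE2L2, KEAP1, TXNRD1, GCLC, GCLM, NQO1, ME1, AKR1B1 and AKR1C1. All 9 were found in the table. They were measured by RNA sequencing in 2 hnRNPM knockdown and 2 control libraries of LM2 cells, a lung metastatic line derived from MDA-MB-231, itself a mesenchymal human breast cancer line. Both groups were grown in the same serum-containing medium and collected 48 h after plating. HNRNPM codes for a nuclear protein that binds RNA and takes part in splice site choice, and the series asks how it acts in metastasis of mesenchymal cells. The labels call the silencing agent an shRNA in one place and an siRNA in another, so the word knockdown is used. Nothing in the labels ties the libraries of a group to separate cultures, and all come from 1 line. What the p-values measure is thus the spread among these libraries, which may be technical.

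NRF2, the product of NFE2L2, is a transcription factor that KEAP1 holds in the cytoplasm and hands to a CUL3 ubiquitin ligase for degradation. Oxidants and electrophiles modify KEAP1, NRF2 then accumulates, pairs with a small MAF protein and binds antioxidant response elements near its target genes. The targets make glutathione, reduce thioredoxin, supply NADPH and detoxify quinones and aldehydes, and many tumours keep the pathway active. Because KEAP1 acts on the NRF2 protein, the level of the NFE2L2 transcript alone does not show how much NRF2 protein there is.

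RPKM is a read count divided by gene length and by the reads sequenced. Levels of different genes can thus be compared only as far as the gene lengths used are right. The steps between low values gave a read total of 29.5 M and 29.6 M in the knockdown and 41.8 M in both control libraries, shared or nearly shared within a group. A depth of its own may thus not enter each column, and an estimated 16.4 M and 18.3 M reads lay in genes in the knockdown libraries, against 23.0 M and 26.5 M in the control libraries. HNRNPM itself was at 11.5 and 12.95 RPKM in the knockdown and 88.6 and 102 RPKM in the control libraries, 7.80-fold lower (limma, adjusted p = 1.48e-59). The 5 mesenchymal breast cancer markers examined (VIM, CD44, CAV1, AXL and MSN) summed to 1063 and 1185 RPKM in the knockdown and 1097 and 1274 RPKM in the control libraries. In limma 1 of the 5 was higher and 4 did not pass, where 14.7% of all tested genes were higher. After median-ratio scaling of the libraries 2 were higher and 3 lower, against 30.8% and 30.2% of all genes. Of 6 luminal and epithelial markers, ESR1, PGR and FOXA1 were below 0.05 RPKM in every library. CDH1 was at 0.717 and 0.990 RPKM after knockdown and 0.0774 and 0.0629 RPKM in controls. The 6 summed to 4.16 and 4.76 RPKM after knockdown and 3.65 and 3.54 RPKM in controls. Most of each sum came from GATA3 and EPCAM, which were tested in limma and did not pass. Of 6 markers of other cell types, 5 were in the table. PTPRC, CD3E, ALB and DES were below 0.05 RPKM throughout, and CD68 made up nearly all of a sum of 7.72 and 8.82 RPKM in knockdown against 26.1 and 29.1 RPKM in control libraries. The 13 mitochondrially encoded genes summed to 7300 and 8067 RPKM after knockdown and 5273 and 6038 RPKM in controls. In limma 10 of 13 were higher, against 14.7% of all tested genes. The part of CDH1, CD68 and the mitochondrial genes in the results below was not tested.

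The 9 genes did not move together after knockdown. TXNRD1, AKR1B1 and NFE2L2 were higher, NQO1 was lower, and KEAP1, GCLC, GCLM and ME1 did not pass the test. AKR1C1 lay under the filter on low values in all libraries and was not tested. Over all 13627 genes with a mean of at least 1 RPKM, limma on log2(RPKM + 0.5) with a Benjamini-Hochberg adjusted p under 0.05 called 14.7% higher and 21.8% lower, 36.4% in either direction. Among the members, 8 of 9 were tested, with 3 higher and 1 lower. In limma without the filter none was called at the adjusted threshold, with adjusted p = 0.0743 for NFE2L2, 0.0576 for TXNRD1, 0.0544 for AKR1B1 and 0.128 for NQO1, although 3 higher and 1 lower had an unadjusted p under 0.05. Of 39 genes called and named here, members and HNRNPM included, 4 (HNRNPM, MT2A, SLC6A6 and ABCC3) were also called without the filter, and the other 35 had adjusted p from 0.0513 to 0.179 in that limma fit. The median log2 fold change of the members was -0.04, against -0.07 over all tested genes. In bulk RNA, fewer cells expressing a gene and less RNA per cell cannot be told apart.

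**Figure D1:**
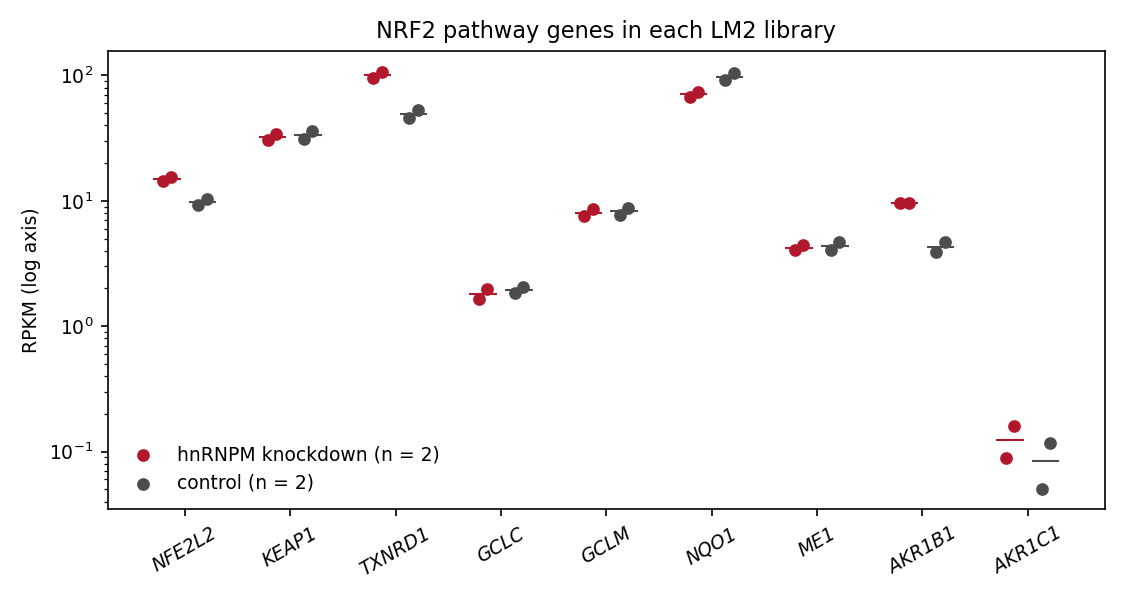
RPKM (log axis) of the 9 NRF2 pathway genes in each library, with knockdown (red) left of control (grey); points are the 2 libraries of a group and lines their mean. TXNRD1, AKR1B1 and NFE2L2 lie higher in both knockdown libraries, NQO1 lies lower, and the groups overlap or lie close for the other genes.

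The short sequence that NRF2 recognises can be looked for beside the genes. The 250 bases before each RefSeq gene start (GRCh38.p14, a build other than the authors' hg19) were searched on both strands for TGACNNNGC, the core of the antioxidant response element. The letters were present in 10.91% of 35116 such windows of the RefSeq table. Among the members, 5 of 13 windows, belonging to 4 of 9 genes, held them: TXNRD1 at both starts, ME1, GCLM and KEAP1. The matches are shown with 5 bases on each side, in the gene's own direction and with the matched 9 bases in capitals, because they mark which members carry the letters close to a start. A sequence that ends its capitals in GTCA is a match on the opposite strand.
TXNRD1, start 1, 99 bases before: ggctaTGACTTCGCtgttg
TXNRD1, start 2, 102 bases before: tttctGCTTTGTCAttctg
ME1, 137 bases before: tgccaTGACTCAGCgcttc
GCLM, 34 bases before: tttctGCTTAGTCAttgtc
KEAP1, start 2, 54 bases before: tattgTGACACGGCgggcg
KEAP1, start 2, 31 bases before: gctctGCTTAGTCAtggtg

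GCLM and KEAP1 share the same matched letters. The members with a match did not move together: TXNRD1 was higher, and ME1, GCLM and KEAP1 did not pass. AKR1B1, NFE2L2 and NQO1, which were called, had no match in their windows, nor had GCLC or AKR1C1. That says only that these letters are not in the 250 bases, since response elements can lie further away.

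NFE2L2, the gene of NRF2 itself, was at 14.4 and 15.6 RPKM in the knockdown libraries, against 9.20 and 10.3 RPKM in the control libraries. Both knockdown values lay above both control values. The mean was 15.001 ± 0.858 RPKM in knockdown and 9.75 ± 0.791 RPKM in control libraries (SD, n = 2 each), a ratio of 1.54. On the log2 scale the change was 0.60 ± 0.18 (SE), with adjusted p = 0.00302 in limma, and 0.67 with an adjusted p = 0.000631 after median-ratio scaling of the libraries. NFE2L2 did not pass in limma without control replicate 1 (adjusted p = 0.1002), without knockdown replicate 1 (0.139) or without knockdown replicate 2 (0.242). The fits that left out 1 library, here and below, used the values as deposited, without scaling. A transcript on the same strand as NFE2L2, AC019080.1, covers 17.6% of its exon bases in GENCODE 29. That transcript was at 0.161 to 0.206 RPKM, far below NFE2L2.

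KEAP1, which codes for the sensor and repressor of NRF2, had 30.4 and 34.0 RPKM after knockdown and 30.8 and 35.9 RPKM in controls. The groups overlapped. Its log2 fold change was -0.05, with a 95% interval from -0.39 to 0.29 (limma, adjusted p = 0.855). After median-ratio scaling the interval narrowed to -0.02 to 0.08, so on that scale a change as large as that of NFE2L2 lay outside it. KEAP1 stood above NFE2L2 per length in every library, and the NFE2L2 to KEAP1 ratio within a library was 0.474 and 0.459 after knockdown and 0.298 and 0.287 in controls. The ratio does not depend on library depth.

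The partners and regulators of NRF2 were followed in a list of 19 genes, of which 16 were in the table and 14 were tested. In limma 3 were higher, 0 lower (also 0 at an unadjusted p under 0.05) and 11 outside the threshold. Of all tested genes 14.7% were higher and 21.8% lower. The median log2 fold change was 0.22, against -0.07 over all tested genes. After median-ratio scaling 10 were higher and 2 lower, against 30.8% and 30.2% of all genes. MAFK, a small MAF protein that pairs with NRF2 on DNA, was at 12.6 and 14.4 RPKM after knockdown and 5.24 and 6.01 RPKM in controls. It rose 2.39-fold, with a log2 fold change of 1.19 ± 0.18 (SE; limma, adjusted p = 3.02e-10), and passed in each fit that left out 1 library. TMEM184A overlaps it on the opposite strand over 18.1% of its exon bases, at 0.956 and 1.04 RPKM in knockdown and 0.295 and 0.326 RPKM in control libraries. No source used here says whether strand was used in counting, and reads of the pair cannot be told apart.

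The other small MAF gene tested, MAFG, was at 15.4 and 17.02 RPKM after knockdown and 12.5 and 14.98 RPKM in controls, and did not pass (log2 fold change 0.24, limma adjusted p = 0.301), but passed after median-ratio scaling (adjusted p = 0.00293). The MAFK to MAFG ratio within a library was 0.814 and 0.843 after knockdown and 0.4197 and 0.401 in controls. SYVN1, an endoplasmic reticulum ubiquitin ligase reported to target NRF2, rose 1.47-fold (limma, adjusted p = 0.00839), and TRIM16, another ubiquitin ligase, 1.48-fold (adjusted p = 0.0371). TRIM16 shares 66.7% of its 50-base stretches with other transcripts, so its level is uncertain. SYVN1 and TRIM16 passed in none of the 4 fits that left out 1 library, with limma adjusted p from 0.0615 to 0.321 for SYVN1 and from 0.077 to 0.438 for TRIM16. DPP3, which can compete with NRF2 for KEAP1, was at 4.10 and 4.53 RPKM in knockdown and 5.20 and 5.66 RPKM in control libraries and did not pass (adjusted p = 0.175), but was lower after median-ratio scaling (adjusted p = 0.0162). SQSTM1, the autophagy receptor that binds KEAP1, was at 75.5 and 83.6 RPKM in knockdown and 64.0 and 74.7 RPKM in control libraries and did not pass (adjusted p = 0.380), but was higher after median-ratio scaling (adjusted p = 0.000876). Its level is uncertain, since MRNIP, on the opposite strand, holds 50.7% of its 50-base stretches and was at 28.9 to 37.2 RPKM.

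TXNRD1 was the member that reached the highest level after knockdown. It codes for cytosolic thioredoxin reductase, a selenoprotein that uses NADPH to keep thioredoxin reduced. Its 2 annotated starts are shown with the matched core in capitals, since TXNRD1 is the only member that was called and holds the core.
TXNRD1 start 1, GRCh38.p14 chr12:104215529-104215778, plus strand: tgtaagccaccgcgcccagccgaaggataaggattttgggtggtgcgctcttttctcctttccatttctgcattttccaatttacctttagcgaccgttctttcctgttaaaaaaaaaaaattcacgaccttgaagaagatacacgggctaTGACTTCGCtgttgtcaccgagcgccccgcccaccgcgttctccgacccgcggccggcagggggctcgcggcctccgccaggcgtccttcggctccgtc
TXNRD1 start 2, GRCh38.p14 chr12:104286782-104287031, plus strand: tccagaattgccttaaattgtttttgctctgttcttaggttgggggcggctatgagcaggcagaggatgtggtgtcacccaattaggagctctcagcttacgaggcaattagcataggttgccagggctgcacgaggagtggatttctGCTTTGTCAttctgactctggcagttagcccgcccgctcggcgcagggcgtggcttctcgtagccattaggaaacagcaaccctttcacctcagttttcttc

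TXNRD1 was at 95.9 and 107 RPKM in the knockdown libraries, against 45.6 and 53.1 RPKM in the control libraries. The groups were far apart, and the lower knockdown value was above the higher control value. The mean was 102 ± 8.01 RPKM in knockdown and 49.4 ± 5.29 RPKM in control libraries (SD, n = 2 each), a 2.06-fold rise. On the log2 scale it rose by 1.04 ± 0.17 (SE), with adjusted p = 2.45e-08 in limma, and it passed in all 4 fits that left out 1 library, with adjusted p of at most 0.0262. After median-ratio scaling the libraries of a group nearly coincided, at 104 and 105 in knockdown and 47.7 and 48.2 in control libraries. None of the 50-base stretches of its longest coding transcript occurs in a transcript of another gene in GENCODE 29.

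Thioredoxin itself, the substrate of that enzyme, was lower. TXN was at 112 and 126 RPKM after knockdown and 151 and 173 RPKM in controls, and fell 1.36-fold (log2 fold change -0.44; limma, adjusted p = 0.0282). It passed in no fit with 1 library removed (adjusted p from 0.109 to 0.539), and it passed after median-ratio scaling (adjusted p = 0.000572). The TXNRD1 to TXN ratio within a library was 0.856 and 0.848 after knockdown and 0.302 and 0.308 in controls. Of 20 genes listed for the thioredoxin and peroxiredoxin system, 16 were in the table and 15 tested, with 1 higher, 7 lower and 7 outside the threshold. Of all tested genes 14.7% were higher and 21.8% lower. The median log2 fold change was -0.33, against -0.07 over all tested genes. After median-ratio scaling 3 were higher and 10 lower, against 30.8% and 30.2% of all genes.

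PRDX6, a peroxiredoxin that also acts on lipid peroxides, was the 1 that rose, 1.498-fold to 72.3 ± 4.26 RPKM (limma, adjusted p = 0.00320), and it passed in no fit with 1 library removed (adjusted p from 0.0506 to 0.298). The methionine sulfoxide reductase MSRB3 fell 2.27-fold (3.78 ± 0.070 RPKM after knockdown against 8.57 ± 1.01 RPKM in controls; limma, adjusted p = 1.37e-08) and passed whichever library was left out. PRDX4, the peroxiredoxin of the endoplasmic reticulum, fell 1.79-fold (limma, adjusted p = 3.10e-05) and the cytosolic PRDX2 1.72-fold (adjusted p = 0.000118). Without knockdown replicate 1 neither passed (limma, adjusted p = 0.0970 for PRDX4 and 0.116 for PRDX2), and PRDX2 also failed without knockdown replicate 2 (0.0570). PRDX1, a known NRF2 target, was at 62.1 and 74.0 RPKM in knockdown and 69.1 and 79.4 RPKM in control libraries, and the groups overlapped (adjusted p = 0.602). MMACHC, PRDX1's neighbour on the opposite strand, shares 28.02% of its 50-base stretches, and for PRDX2 26.01% occur elsewhere.

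GCLC and GCLM code for the catalytic and the modifier subunit of glutamate-cysteine ligase, the rate-limiting enzyme of glutathione synthesis. GCLC was the lowest of the 8 tested members, at 1.65 and 1.97 RPKM in knockdown and 1.82 and 2.07 RPKM in control libraries. GCLM stood at 7.56 and 8.55 RPKM after knockdown and 7.75 and 8.71 RPKM in controls. For both genes the groups overlapped. GCLC had a log2 fold change of -0.09 (95% interval -0.46 to 0.28; limma, adjusted p = 0.757). GCLM had one of -0.03 (95% interval -0.37 to 0.31; adjusted p = 0.917). The GCLM to GCLC ratio within a library was 4.59 and 4.34 after knockdown and 4.25 and 4.21 in controls. The modifier subunit thus had more transcript per length in every library, given the gene lengths used.

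Other genes of glutathione synthesis, recycling and use were counted in a list. Of 27 listed, 23 were in the table and 19 tested, with 1 higher, 6 lower and 12 not passed in limma. Of all tested genes 14.7% were higher and 21.8% lower. The median log2 fold change was -0.18, against -0.07 over all tested genes. After median-ratio scaling 6 were higher and 9 lower, against 30.8% and 30.2% of all genes. SLC7A11, the cystine importer that feeds glutathione synthesis, was the 1 that rose, with groups that did not overlap: 20.05 and 21.6 RPKM after knockdown against 11.4 and 13.1 RPKM in controls. Its ratio of means was 1.70 (log2 fold change 0.75 ± 0.18, SE; limma, adjusted p = 0.000148). The call was lost without knockdown replicate 1 (adjusted p = 0.0603), without knockdown replicate 2 (0.114) or without control replicate 1 (0.0585). SLC7A11-AS1 overlaps it on the opposite strand over 8.97% of its exon bases, at 1.82 to 3.45 RPKM.

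GSTP1, a glutathione S-transferase that conjugates electrophiles, was at 14.2 and 16.2 RPKM after knockdown and 38.1 and 45.5 RPKM in controls. It fell 2.74-fold (log2 fold change -1.42 ± 0.17, SE; limma, adjusted p = 1.54e-14) and passed in all 4 fits that left out 1 library. GSTA4, a transferase for lipid aldehydes, fell 2.55-fold to 0.862 ± 0.033 RPKM against 2.20 ± 0.233 RPKM in controls (adjusted p = 4.92e-06). It passed the filter only through the control libraries, where it was high. Its place is thus no support for the 6 lower genes, the 9 lower after median-ratio scaling or the list median. The peroxidase gene GPX1 fell 1.71-fold (adjusted p = 0.000135) and failed in limma without control replicate 2 (0.0703) or knockdown replicate 1 (0.157). A share of 21.5% of its 50-base stretches occurs in other transcripts, mostly of GPX1P1. GSR, which regenerates glutathione with NADPH, was at 7.83 and 8.48 RPKM in knockdown and 6.85 and 7.45 RPKM in control libraries and did not pass (adjusted p = 0.448), but passed after median-ratio scaling (adjusted p = 0.0114).

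ME1, cytosolic malic enzyme, makes NADPH from malate. It was at 4.06 and 4.40 RPKM in the knockdown libraries and 4.04 and 4.71 RPKM in the control libraries, so the groups overlapped. The log2 fold change was -0.04 (95% interval -0.39 to 0.30; limma, adjusted p = 0.884), and after median-ratio scaling the interval was -0.08 to 0.14. Among 17 other genes of NADPH supply, all in the table, 15 were tested, with 1 higher, 5 lower and 9 outside the threshold. Of all tested genes 14.7% were higher and 21.8% lower. The median was -0.19, against -0.07 over all tested genes. After median-ratio scaling 4 were higher and 8 lower, against 30.8% and 30.2% of all genes.

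PGD, 6-phosphogluconate dehydrogenase, forms NADPH in the pentose phosphate pathway. It was at 6.10 and 6.92 RPKM after knockdown and 14.1 and 15.5 RPKM in controls, and fell 2.28-fold (log2 fold change -1.13 ± 0.18, SE; limma, adjusted p = 2.54e-09). It passed whichever library was left out. PGLS, a lactonase of the same pathway, fell 1.47-fold (adjusted p = 0.00699), mitochondrial malic enzyme ME3 1.74-fold (adjusted p = 0.000286) and the folate enzyme MTHFD1 1.64-fold (adjusted p = 0.000671). PGD, PGLS, ME3 and MTHFD1 were named because they had the smallest p of the NADPH list in limma. The 1 higher gene of that list is not among them. A share of 21.7% of the PGLS stretches occurs in AC010618.3, not analysed here. PGLS passed in no fit that left out 1 library (limma, adjusted p from 0.0658 to 0.419). ME3 failed without knockdown replicate 1 (0.125), and MTHFD1 failed without knockdown replicate 1 (0.164), without knockdown replicate 2 (0.0836) or without control replicate 2 (0.0675).

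NQO1, the quinone reductase that is a widely measured NRF2 target, was the member with the highest level in controls. It was at 67.9 and 73.9 RPKM in the knockdown libraries and 91.3 and 104 RPKM in the control libraries. Both knockdown values were below both control values. The mean was 70.9 ± 4.25 RPKM in knockdown and 97.5 ± 8.69 RPKM in control libraries (SD, n = 2 each), 1.38-fold lower. On the log2 scale the change was -0.46 ± 0.17 (SE), with adjusted p = 0.0240 in limma, and -0.38 with an adjusted p = 0.000727 after median-ratio scaling. It passed in none of the 4 fits that left out 1 library, with adjusted p = 0.483 without knockdown replicate 1, 0.299 without knockdown replicate 2, 0.101 without control replicate 1 and 0.247 without control replicate 2, nor with empirical Bayes without a trend (0.0625). Those fits used the values as deposited. After median-ratio scaling NQO1 was at 73.4 and 72.0 in knockdown and 95.4 and 94.0 in control libraries. The antisense gene AC092115.2, not analysed here, overlaps 17.7% of the exon bases of NQO1.

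TXNRD1 and NQO1 exchanged their order. Within a library the TXNRD1 to NQO1 ratio was 1.41 and 1.45 after knockdown and 0.4995 and 0.513 in controls. TXNRD1 had more transcript per length than NQO1 in both knockdown libraries, and NQO1 had more in both control libraries. No scaling of whole libraries can alter that order. The window before the NQO1 start holds none of the searched letters and is shown for comparison with those of TXNRD1.
NQO1, GRCh38.p14 chr16:69726561-69726810, minus strand: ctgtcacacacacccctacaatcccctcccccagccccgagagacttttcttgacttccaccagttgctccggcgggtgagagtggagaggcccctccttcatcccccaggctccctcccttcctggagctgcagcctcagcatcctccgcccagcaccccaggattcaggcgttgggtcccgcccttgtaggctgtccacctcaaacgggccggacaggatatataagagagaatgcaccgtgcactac

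**Figure D2:**
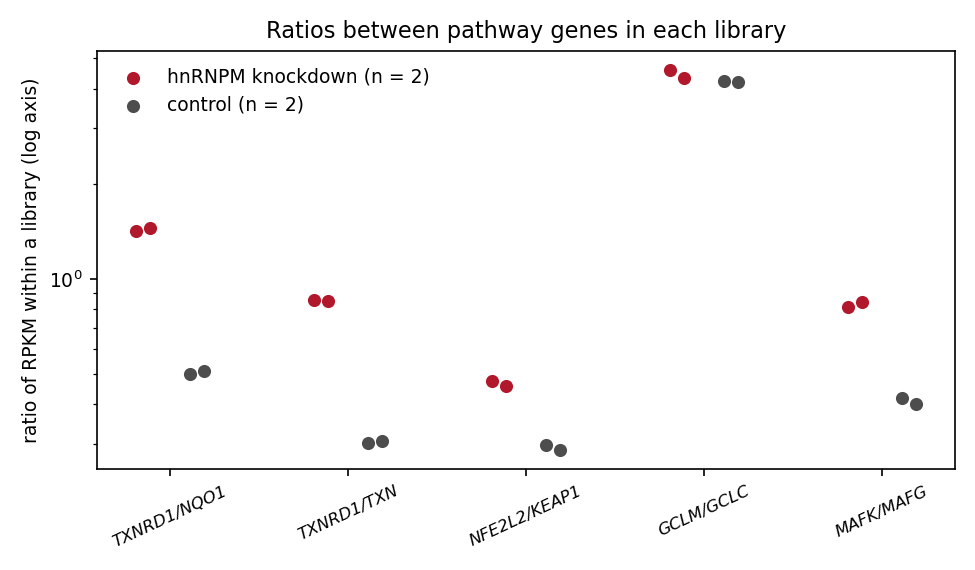
Ratio of RPKM between 2 genes of the same library (log axis), with knockdown (red) left of control (grey) and 1 point per library. TXNRD1/NQO1 is 1.41 and 1.45 after knockdown and 0.4995 and 0.513 in controls, whereas GCLM/GCLC lies between 4.21 and 4.59 in all 4 libraries.

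AKR1B1 codes for aldose reductase, which reduces glucose to sorbitol and also clears lipid aldehydes. The window of the downstream of its 2 annotated starts is shown because AKR1B1 had the largest log2 fold change among the 8 tested members and no match to the core.
AKR1B1 start 1, GRCh38.p14 chr7:134459101-134459350, minus strand: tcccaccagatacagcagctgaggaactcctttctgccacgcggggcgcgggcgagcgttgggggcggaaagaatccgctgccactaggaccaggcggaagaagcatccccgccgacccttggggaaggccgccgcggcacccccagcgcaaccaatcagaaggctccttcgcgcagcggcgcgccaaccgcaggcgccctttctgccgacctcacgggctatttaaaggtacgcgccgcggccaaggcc

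AKR1B1 was at 9.55 and 9.62 RPKM in the knockdown libraries, against 3.88 and 4.66 RPKM in the control libraries. The groups did not overlap, and the mean was 9.58 ± 0.0515 RPKM in knockdown and 4.27 ± 0.552 RPKM in control libraries (SD, n = 2 each), a 2.24-fold rise. On the log2 scale it rose by 1.08 ± 0.18 (SE), with adjusted p = 1.12e-08 in limma and with adjusted p of at most 0.0157 when any 1 library was left out. Sequence copies of the gene take little of it: 4.78% of its 50-base stretches occur in other transcripts. Within a library the ratio of AKR1B1 to AKR1A1, the related aldehyde reductase, was 1.86 and 1.87 after knockdown and 0.512 and 0.532 in controls. Its ratio to AKR1C3 was 3.91 and 3.44 after knockdown and 3.32 and 3.60 in controls, and those groups overlapped.

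AKR1C1 reduces steroids and aldehydes and is a strong NRF2 target in some cancer lines. It was at 0.0883 and 0.160 RPKM in knockdown and 0.0508 and 0.117 RPKM in control libraries, which the steps of its values put at 16 and 29 reads against 13 and 30 reads. The groups overlapped, and the libraries of a group differed more than the groups did. A limma fit without a filter gave a log2 fold change of 0.10 (95% interval -0.20 to 0.39, adjusted p = 0.557), and a change was not detectable at this depth. Of its 50-base stretches, 28.3% occur in AKR1C2, so even these reads could belong to the paralog. AKR1C2 was at 0.0554 and 0.0692 RPKM, or 4 and 5 reads, after knockdown and 0.0392 RPKM, or 4 reads, in both control libraries.

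The third paralog, AKR1C3, a ketosteroid and prostaglandin reductase, did rise. It was at 2.44 and 2.80 RPKM after knockdown and 1.17 and 1.29 RPKM in controls, 2.13-fold (log2 fold change 0.85 ± 0.19, SE; limma, adjusted p = 5.76e-05), and passed whichever library was left out. A share of 12.1% of its 50-base stretches occurs in other transcripts. The list of aldo-keto reductases and carbonyl or quinone reductases also held enzymes of other function, among them EPHX1, ALDH3A2, UGDH and UGT1A6. It named 22 genes, of which 19 were in the table and 9 tested. In limma 2 were higher, 3 lower and 4 outside the threshold, against 14.7% higher and 21.8% lower of all tested genes. The median was -0.34, against -0.07 over all tested genes. After median-ratio scaling 3 were higher and 5 lower, against 30.8% and 30.2% of all genes. EPHX1, microsomal epoxide hydrolase, rose 1.70-fold to 13.3 ± 0.590 RPKM (adjusted p = 0.000173), but failed in limma without knockdown replicate 1 (0.0566), without knockdown replicate 2 (0.0950) or without control replicate 1 (0.0676). The fatty aldehyde dehydrogenase ALDH3A2 fell 1.97-fold (adjusted p = 1.23e-06) and passed whichever library was left out. NQO2, a relative of NQO1 that does not use NADPH, fell 1.65-fold (adjusted p = 0.000674), which was lost on removal of knockdown replicate 1 (0.157), knockdown replicate 2 (0.0750) or control replicate 2 (0.0685).

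**Figure D3:**
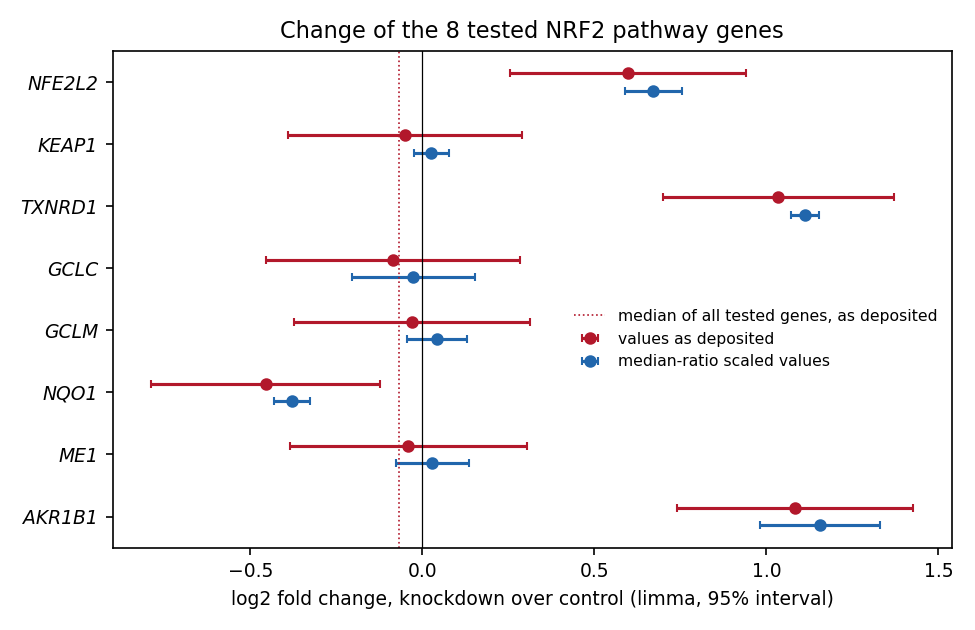
Log2 fold change, knockdown over control, of the 8 tested NRF2 pathway genes with 95% intervals from limma, for values as deposited (red) and after median-ratio scaling (blue); the dotted line is the median of all tested genes. TXNRD1 (1.04), AKR1B1 (1.08) and NFE2L2 (0.60) lie right of 0, NQO1 (-0.46) left of it, and the other 4 intervals include 0 on both scales.

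Of 8 exporters of drugs and glutathione conjugates listed, 5 were tested, with 3 higher, 0 lower in limma (also 0 at an unadjusted p under 0.05) and 2 outside the threshold. Of all tested genes 14.7% were higher and 21.8% lower. The median log2 fold change was 0.65, against -0.07 over all tested genes. After median-ratio scaling 4 were higher, against 30.8% of all genes. ABCC3, a conjugate and bile salt exporter, was at 5.08 and 5.39 RPKM after knockdown and 1.90 and 2.03 RPKM in controls, 2.67-fold higher (log2 fold change 1.22 ± 0.18, SE; limma, adjusted p = 1.90e-10). ABCC1, which exports glutathione conjugates, rose 1.59-fold to 14.4 ± 1.02 RPKM (adjusted p = 0.00123). ABCC1 failed without knockdown replicate 1 (limma, adjusted p = 0.0938), without knockdown replicate 2 (0.201) or without control replicate 1 (0.0839). ABCG2, a broad drug exporter, rose 2.07-fold to 1.46 ± 0.00984 RPKM (adjusted p = 0.00264), and its mean lay below the filter when either knockdown library was left out. It entered the test only through the knockdown libraries, since its control mean of 0.704 RPKM was under the filter. Its place is thus no support for the count of 3, the count of 4 after median-ratio scaling or the median of 0.65. ABCC5 was at 2.71 and 3.09 RPKM in knockdown and 2.07 and 2.45 RPKM in control libraries and did not pass (adjusted p = 0.188), but passed after median-ratio scaling (adjusted p = 0.00659).

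Of 11 haem and iron genes listed, 10 were in the table and 9 tested, with 2 higher, 1 lower and 6 outside the threshold, the median being 0.04; of all tested genes 36.4% were called. After median-ratio scaling 3 were higher, 1 was lower and 5 did not pass, against 30.8% higher and 30.2% lower of all genes. HMOX1 and SRXN1, inducible NRF2 targets, were not analysed here. The transferrin receptor gene TFRC rose 1.62-fold to 96.6 ± 5.32 RPKM (limma, adjusted p = 0.000289), but did not pass without knockdown replicate 1 (0.0963), without knockdown replicate 2 (0.172) or without control replicate 1 (0.0817). Ferritin heavy chain FTH1 rose 1.49-fold (adjusted p = 0.0119) and ferritin light chain FTL fell 1.35-fold (adjusted p = 0.0491). FTH1 was at 5.07 and 5.18 RPKM after knockdown and 3.35 and 3.50 RPKM in controls, and FTL at 11.6 and 11.9 RPKM after knockdown and 15.01 and 16.7 RPKM in controls. Neither passed when any 1 library was left out (limma, adjusted p from 0.0632 to 0.459). For FTH1, 78.7% of the 50-base stretches occur in other transcripts, and for FTL 18.3%, so both levels are uncertain. BLVRA, biliverdin reductase, was at 5.93 and 5.69 RPKM in knockdown and 6.17 and 6.97 RPKM in control libraries and did not pass (adjusted p = 0.5004).

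A list of 11 further genes, NMRAL1 included, was taken as NRF2 targets by name only. Whether each is a target in these cells was not tested. Of the 11, 10 were in the table and 5 tested, with 2 higher and 3 lower. Of all tested genes 14.7% were higher and 21.8% lower. The median was -0.61, against -0.07 over all tested genes. LUCAT1, a long noncoding RNA induced by NRF2, was at 2.29 and 2.37 RPKM after knockdown and 0.888 and 1.04 RPKM in controls, 2.41-fold higher (limma, adjusted p = 8.79e-06). Its control mean of 0.966 RPKM was under the filter, which it passed only through the knockdown libraries, where it was high. Its place among the 2 higher genes is thus no support for that count or for the list median. SLC6A6, the taurine transporter, fell 2.76-fold to 8.04 ± 0.733 RPKM, against 22.2 ± 2.002 RPKM in controls (adjusted p = 4.01e-14), and NMRAL1, a sensor of NADPH, 2.03-fold (adjusted p = 5.15e-07). SLC6A6 and NMRAL1 passed whichever library was left out. The acyltransferase gene GPAT3 fell 1.55-fold (adjusted p = 0.00262), but failed without knockdown replicate 1 (0.305), without knockdown replicate 2 (0.0987) or without control replicate 2 (0.129).

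Genes listed for superoxide and peroxide handling outside the NRF2 core were mostly lower. Their list also held NOX4 and CYBA, which code for parts of an oxidant-producing NADPH oxidase. It held the metallothionein genes MT1E, MT1X and MT2A and the gene UCP2 as well, so its counts and median are not those of defence enzymes alone. Of 11 listed, 10 were in the table and 9 tested, with 0 higher (1 at an unadjusted p under 0.05 in limma), 7 lower and 2 outside the threshold. Of all tested genes 14.7% were higher and 21.8% lower. The median log2 fold change was -0.78, against -0.07 over all tested genes. After median-ratio scaling 1 was higher and 8 lower, against 30.8% and 30.2% of all genes. The metallothionein gene MT2A, whose product binds zinc and scavenges oxidants, was at 17.3 and 17.5 RPKM after knockdown and 74.7 and 89.99 RPKM in controls. It fell 4.73-fold (log2 fold change -2.20 ± 0.17, SE; limma, adjusted p = 1.93e-34), and its relative MT1X fell 4.28-fold to 3.18 ± 0.901 RPKM, against 13.6 ± 1.88 RPKM in controls (adjusted p = 1.25e-26). Of the 50-base stretches of MT1X, 55.8% occur in another transcript. Catalase (CAT) fell 2.50-fold to 5.50 ± 0.335 RPKM, against 13.7 ± 1.35 RPKM in controls (adjusted p = 3.35e-11), and extracellular superoxide dismutase (SOD3) 1.99-fold (adjusted p = 1.42e-06). These 4 passed whichever library was left out.

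**Figure D4:**
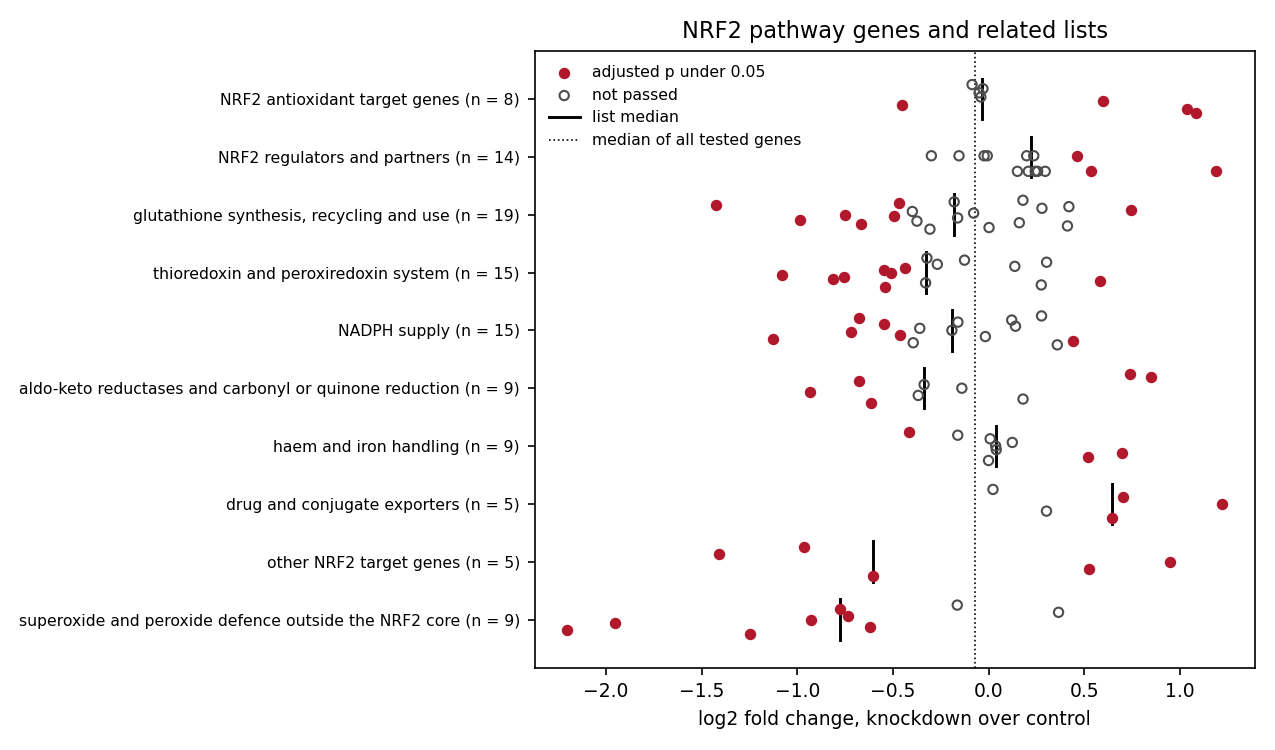
Log2 fold change, knockdown over control, of each tested gene in the NRF2 set and the 9 related lists; filled red points passed limma at an adjusted p under 0.05, open points did not, black bars are list medians and the dotted line is the median of all tested genes (-0.07). The exporter median is 0.65, with ABCG2, which entered the test only through the knockdown libraries. That of the superoxide and peroxide defence list, which also holds metallothionein and NADPH oxidase genes, is -0.78.

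Across the 9 related lists, 129 of 146 genes were in the table and 100 could be tested, and 15 (15%) were higher and 32 (32%) lower. Among them 2 higher genes (ABCG2 and LUCAT1) and 1 lower gene (GSTA4) passed the filter only through the group where they were high. They lend these counts no support. The higher share was close to the 14.7% of all genes, and the lower share stood beside 21.8% of all genes. After median-ratio scaling, 36 were higher and 46 lower, with ABCG2, LUCAT1 and GSTA4 again among them. For the members themselves that scaling gave the same 3 higher and 1 lower, against 30.8% and 30.2% of all genes, 61.0% in either direction.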

How the data were processed

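RNA from 2 knockdown and 2 control LM2 libraries was sequenced. The authors deposited 1 table of RPKM values for 36525 Ensembl genes, 1 column per library (0 columns unused); Bowtie 0.12.7 and hg19 are named in the submitters' processing notes. No source used here gives the counting program or its use of strand. Symbols for 32172 IDs came from a table of present names and for 133 from GENCODE 29, and 4220 had none. Chromosomes 20, 21 and 22 were not analysed here.

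Values were analysed as log2(RPKM + 0.5), which understates changes of low genes, for genes with a mean of at least 1 RPKM. The fit used limma 3.58.1 in R 4.3.3 (group only, empirical Bayes with trend, Benjamini-Hochberg adjustment over all tested genes, threshold 0.05). It was also run on simulated data with noise drawn for each gene alone. Those data held no shift common to a library, so they cannot check the p-values of the values as deposited. RPKM values are not counts, so no count test was run. limma found no spread of variance between genes beyond its trend, so very small p-values rest on a shared variance. The median SE was 0.175, and 0.0543 after median-ratio scaling: most of the spread was common to the genes of a library. With 2 against 2 libraries the smallest two-sided p of an exact permutation test is 0.333, and it was left out. Depth came from the steps of low values in genes with 1 transcript, of which 92.3% to 92.7% were whole reads within 0.1 read. Between libraries of a group the mean chi-square per gene was 1.33 and 1.35, where counting error gives about 1, and both were kept.

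Shared 50-base stretches were counted on both strands in GENCODE 29 transcripts. Promoter windows are from RefSeq (GRCh38.p14). The members and gene lists were chosen with earlier results of these data known. Besides the 9 members and HNRNPM, the text names up to 4 tested genes per related list with the smallest p and a fixed set of known pathway genes, of which 1 gene is not reported here and was left out of its list. The alternatives tried were other pseudocounts, filters, scalings and empirical Bayes settings, a replicate block and leaving out each library. Libraries were left out only on the values as deposited, where a shift common to a library stays in.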

Additional observations from a re-analysis of the deposited data

How the results depend on the processing

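The 3 higher and 1 lower members kept those counts with either other pseudocount, with a mean of at least 5 RPKM and under both scalings. Without a filter limma called 0 higher and 0 lower, and empirical Bayes without a trend called 0 lower, where 3 and 1 members in the first case and 1 in the second had an unadjusted p under 0.05. Leaving out each library in turn gave 2 to 3 higher members and 0 to 0 lower. Over all genes, 2000 were higher and 2964 lower; the counts were 262 and 255 without a filter, 1047 and 1321 at a mean of at least 5 RPKM, 4196 higher (and 4115 lower) with median-ratio and 3863 higher with upper-quartile scaling, and 693 to 1337 higher and 1100 to 1907 lower without 1 library. Higher genes made up 40.3% of calls as deposited and 50.5% after median-ratio scaling. The cause of these shifts was not tested. With the replicate number as a block, 3109 genes were higher, and 3860 with the block and median-ratio scaling, with 3 higher and 1 lower member in both. The numbers share only a label: deviations from the group means correlated at 0.03 between same-numbered libraries, and 2 pairs cannot settle a pairing.

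Members that did not pass changed sign. With median-ratio scaling, with and without the replicate block, log2 fold changes were 0.0264 for KEAP1, 0.0431 for GCLM and 0.0287 for ME1, and GCLM was 0.0099 with upper-quartile scaling. Without 1 library KEAP1 ranged from -0.159 to 0.0593, GCLC from -0.188 to 0.0146, GCLM from -0.113 to 0.0536 and ME1 from -0.141 to 0.0596. Of 39 named genes called, 18 stayed called whichever library was left out, and 4 without a filter. GSTA4 and LUCAT1, which stayed called whichever library was left out, had entered the test only through the group where they were high. The 2 libraries a group limit the precision throughout.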
